A study of Mus musculus with 8 samples.

Results

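Chief cells are the zymogen-secreting cells of the gastric gland, and the genes described here encode their digestive enzyme precursors, other secreted products and one regulator of their secretory apparatus. The 10 genes were taken by symbol from the deposited table of 53170 named genes: Pgc, Cym, Pga5 and Ctse (aspartic proteases), Lipf and Clps (a lipase and a lipase cofactor), Chia1 (a chitinase), Cblif (intrinsic factor), Mia (a small secreted protein) and Bhlha15 (a transcription factor). RNA was sequenced from 8 libraries of mouse organoids, grown for 5 days in growth medium from hindstomach epithelium of embryos at embryonic day 18.5. The 4 control libraries have the genotype Shh-Cre, a recombinase active in foregut endoderm, and the 4 YAP5SA libraries the genotype Shh-Cre;YAP5SA, so the recombinase is common to both groups. YAP5SA is a form of the coactivator YAP that lacks sites phosphorylated by the Hippo kinases. The labels do not say whether libraries of a group came from separate embryos, pooled embryos or separate cultures, so the p-values cover no more than library-to-library spread, part of which may be technical.

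Pepsinogens and prochymosin are stored in apical granules and become active proteases in acid. Pepsinogens digest protein in the adult stomach, whereas chymosin clots milk in the stomach of the newborn. The factor encoded by Bhlha15, known as MIST1, scales up the secretory machinery of zymogenic cells and is a late step of their maturation. The comparison asked how the level of each of these genes differs between organoids with and without the active form of YAP. Counts of Yap1 itself were at 151.7 to 169.2 CPM in controls and 149.6 to 157.4 CPM in YAP5SA, so they do not show the transgene.

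Total counts per library were between 13672268 (control 4) and 19710648 (control 3). Levels are in CPM (a gene's counts scaled to a common library size, after TMM normalization, which corrects for library composition), and a log2 fold change is YAP5SA over control. The female RNA Xist was at 675.6 to 1049 CPM in the controls and at 0.41 to 2.76 CPM in the YAP5SA libraries, and the Y-linked gene Eif2s3y at 0 to 0.11 and at 93.3 to 110.7 CPM. Sex and genotype therefore cannot be told apart in these libraries, in any result given here. Genes of epithelium (Epcam, Cdh1, keratin and claudin genes, 8 in all) summed to 9113 to 9749 CPM in controls and 6435 to 6669 CPM in YAP5SA, and 10 mesenchymal markers to at most 4.48 and 1.71 CPM. Much of the lower epithelial sum lay in the claudin gene Cldn18 (1353 and 2.05 CPM) and the keratin gene Krt8 (1709 and 1029 CPM). Epcam alone of the 8 had a higher mean in YAP5SA (485.7 and 640.4 CPM). Of 6 defining chief cell markers, 4 were above 10 CPM in the controls (Pgc, Cym, Cblif and Bhlha15), while Pga5 and Lipf were at or close to 0, so the label of a mature chief cell set was met only in part.

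Of the 6 genes called lower in YAP5SA, the 4 with an entry in a promoter table are shown with the 250 bases before their start sites. Genes were matched by symbol in a RefSeq table on build GRCm38.p6, which held 7 of the 10 genes and not Pga5, Ctse or Clps. The counts were made on mm9, per the submitters' processing notes, so these coordinates belong to the RefSeq table and not to the counts. Capitals mark the letters of a TATA box (TATAAA), of a core bound by GATA factors (GATAA) and of a core bound by TEAD factors, the DNA-binding partners of YAP (GGAATG), on either strand. Each sequence runs 5′ to 3′ on the strand of its gene.
Pgc, chr17:47726592-47726841, + strand: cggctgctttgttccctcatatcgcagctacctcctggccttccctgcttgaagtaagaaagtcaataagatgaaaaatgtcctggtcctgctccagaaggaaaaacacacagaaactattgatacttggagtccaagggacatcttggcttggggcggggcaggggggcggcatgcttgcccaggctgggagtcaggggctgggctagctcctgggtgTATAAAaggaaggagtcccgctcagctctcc
Cym, chr3:107221733-107221982, - strand: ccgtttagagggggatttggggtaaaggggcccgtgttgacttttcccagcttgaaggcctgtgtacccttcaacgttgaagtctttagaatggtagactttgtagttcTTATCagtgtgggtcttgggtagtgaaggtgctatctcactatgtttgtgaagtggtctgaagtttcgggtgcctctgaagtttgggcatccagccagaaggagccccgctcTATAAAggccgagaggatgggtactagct
Cblif, chr19:11747309-11747558, + strand: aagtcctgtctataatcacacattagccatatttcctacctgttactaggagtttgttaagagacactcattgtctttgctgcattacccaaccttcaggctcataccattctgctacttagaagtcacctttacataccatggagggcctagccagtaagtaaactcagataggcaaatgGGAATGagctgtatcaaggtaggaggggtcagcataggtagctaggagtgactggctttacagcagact
Bhlha15, chr5:144190036-144190285, + strand: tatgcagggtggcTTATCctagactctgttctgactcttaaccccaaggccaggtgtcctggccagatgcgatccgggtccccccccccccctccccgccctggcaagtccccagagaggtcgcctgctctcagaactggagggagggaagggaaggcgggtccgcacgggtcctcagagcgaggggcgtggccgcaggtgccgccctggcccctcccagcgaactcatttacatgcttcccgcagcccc

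Pgc and Cym both had a TATA box, which began at positions -31 and -29 from the start site, and Cblif and Bhlha15 had none in this window. TATAAA stood in 12.4% of the 32851 windows of the same length in the table. The letters of the GATA core were found for Cym (position -141) and Bhlha15 (-237), and in 22.6% of all windows. Those of the TEAD core were found for Cblif (-69), and in 12.6% of all windows. The E-box, the general site of helix-loop-helix factors such as MIST1 (CANNTG), was found for Cblif and Bhlha15, among 4 of the 7 genes with a window, and in 66.2% of all windows. Its form CATATG was in none of the 7 windows and in 3.46% of all. A match describes letters and not a bound site, and a missing match says only that the letters are not in this window.

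The zymogen genes Pgc and Cym, the highest of the 10 in controls, had few counts in YAP5SA organoids. Pgc, the pepsinogen C gene, was at 657, 547, 517 and 623 CPM in controls 1 to 4 and at 0.97, 1.88, 1.16 and 0.29 CPM in YAP5SA 1 to 4. The lowest control was thus far above the highest YAP5SA library, and the log2 fold change was −9.06 ± 0.21 SE (adjusted p = 9.84e-11, by the quasi-likelihood test of edgeR, Benjamini-Hochberg adjusted over the 14058 genes tested). Cym, which encodes prochymosin, was at 1103, 871, 907 and 637 CPM in controls and at 2.52, 3.26, 2.45 and 0.41 CPM in YAP5SA. Its log2 fold change was −8.66 ± 0.37 SE (adjusted p = 1.13e-06, edgeR). In YAP5SA 4 both genes were lowest, with 5 counts of Pgc and 7 of Cym.

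Ctse, the intracellular aspartic protease cathepsin E, best known from surface mucous (pit) cells, fell less far. Its controls were at 151, 138, 158 and 141 CPM and its YAP5SA libraries at 1.75, 3.37, 2.64 and 1.88 CPM. The controls spread little (SD 9.31 CPM on a mean of 147.0 CPM), and the log2 fold change was −5.91 ± 0.12 SE (adjusted p = 1.33e-16, edgeR). The fourth protease gene, Pga5, which encodes a pepsinogen of the A group, had 0 counts in all 8 libraries. A count of 0 over a group allows up to 0.0446 CPM in controls and 0.0454 CPM in YAP5SA (3 counts over the group; counting error only).

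Cblif encodes gastric intrinsic factor, the carrier that protects vitamin B12 (cobalamin) until its uptake in the ileum, and is made by chief cells in the mouse. It was at 174, 95.9, 137 and 66.8 CPM in controls and at 0.45, 0.55, 0.19 and 0.12 CPM in YAP5SA, where all 4 libraries together held 22 counts. The controls spread 2.60-fold from lowest to highest, and the groups did not overlap. The log2 fold change was −8.45 ± 0.59 SE (adjusted p = 2.12e-05, edgeR).

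Bhlha15 was at 39.1, 18.2, 31.2 and 13.4 CPM in controls, a 2.93-fold spread, and had 0, 9, 1 and 1 counts in YAP5SA 1 to 4. The log2 fold change was −7.20 ± 0.72 SE (adjusted p = 9.13e-05, edgeR), and 1 library decided its size. Without YAP5SA 2 it was −9.02 (adjusted p = 0.000224, edgeR), with 2 counts left in that group.

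Clps encodes colipase, a cofactor of triglyceride lipase best known from the exocrine pancreas. Its controls were at 36.6, 21.2, 26.7 and 15.2 CPM, and the only 2 counts in YAP5SA lay in YAP5SA 2. The ratio of pooled levels, control over YAP5SA, was 833 (95% counting interval 230.3 to 6886, exact), and without YAP5SA 2 Clps was at least 403-fold lower, taking 3 counts over the remaining 3 libraries as the floor. The fit over all genes called it lower (adjusted p = 2.02e-07, edgeR). Genes in a list of pancreatic acinar cells were nearly absent from the same controls. The list does not hold Bhlha15, the cholecystokinin receptor gene Cckar (25.9 CPM in controls) or the lipase relative Pnliprp2 (1.75 CPM in controls). The 27 listed, among them the trypsinogen, amylase, elastase and pancreatic lipase genes, summed to 0.56 to 1.83 CPM in controls and 0.26 to 1.06 CPM in YAP5SA, none was counted often enough to test, and the acinar factor gene Ptf1a had 0 counts in all libraries.

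The remaining secreted products were barely transcribed in either group. Lipf, gastric lipase, had 3, 9, 0 and 1 counts in controls and 0 in every YAP5SA library. Its 0.19 CPM pooled over controls was 4.26-fold above a floor of 3 counts over the YAP5SA group. The exact 95% counting interval of the ratio began lower, at 2.99, and the groups overlapped, with 0 counts in control 3. Lipf failed the filter on low counts, and with no filter it was called lower (log2 fold change −4.72, adjusted p = 0.0138, edgeR). Chia1, acidic mammalian chitinase, had 2 counts, both in control 4, and 0 in YAP5SA, which is within the floor of both groups. Mia had 5 counts in controls and 2 in YAP5SA, a ratio of 2.46 (95% counting interval 0.40 to 25.8, exact), so a difference was not detectable at this depth. Its exons overlap those of Gm21983, a gene model on the same strand, in the GENCODE M21 annotation, so its few counts are uncertain.

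**Figure D1:**
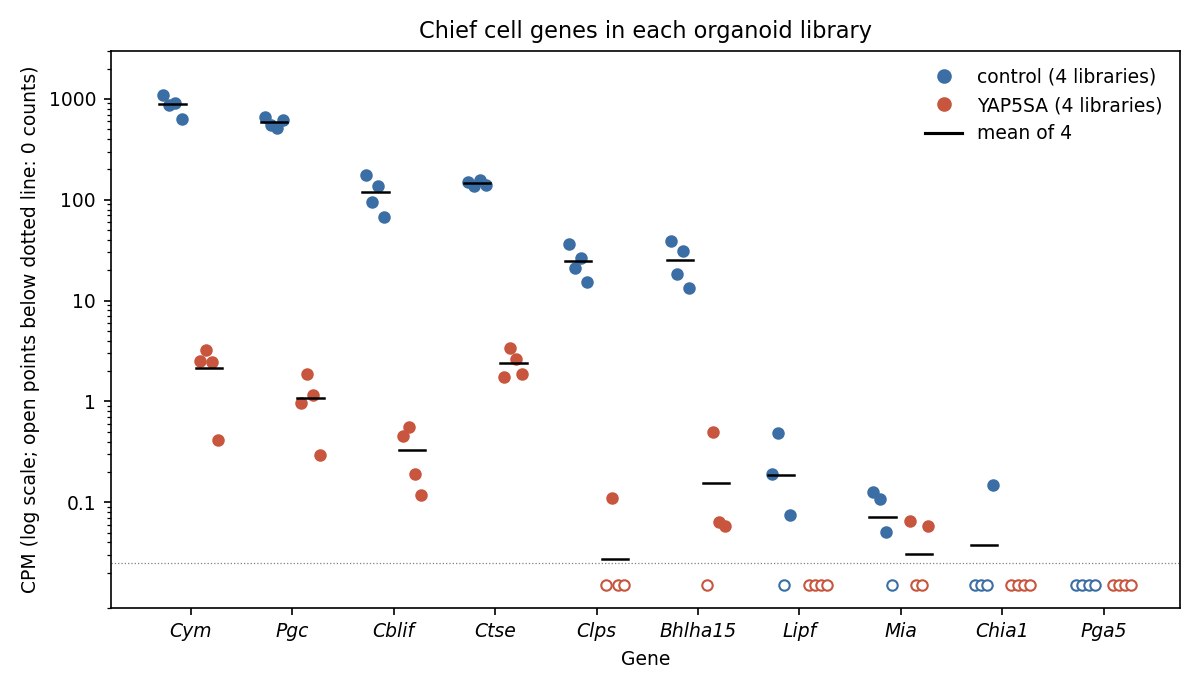
Level of each of the 10 genes in CPM (log scale) in each library, with controls in blue, YAP5SA in red and black bars for the mean of 4. Open points below the dotted line are libraries with 0 counts. For Cym, Pgc, Cblif, Ctse, Clps and Bhlha15 every control lies above every YAP5SA library, while Lipf, Mia, Chia1 and Pga5 lie under 0.5 CPM in all 8 libraries.

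In all, 6 of the 10 genes passed the filter on low counts, 5 of them only through the control libraries and Ctse through both groups. The 6 were called lower in YAP5SA and did not overlap between groups. Over all 14058 tested genes, 49.1% were called, 25.5% lower and 23.6% higher, and 23.9% did not overlap with the controls above. Genes that pass a filter only where they are high had to differ, so the count of 6 is a description. Bulk RNA cannot tell fewer zymogenic cells from less RNA of these genes in each cell.

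The 10 genes together took 0.146% to 0.213% of the named counts in the controls and 0.000287% to 0.00098% in YAP5SA. Their make-up also differed. In controls Cym held 42.6% to 51.5% of these counts, Pgc 29.1% to 41.6% and Ctse 6.99% to 9.41%. In YAP5SA the share of Ctse was 30.3% to 66.7% and that of Pgc 10.4% to 19.4%, out of only 48 to 175 counts a library.

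Levels of different genes were compared per kb of exon. On this scale Cym was highest in the controls (711.6 ± 154.8 CPM per kb, SD, n = 4), followed by Pgc (422.1 ± 47.0), and their ranges did not overlap. Cblif (77.0 ± 30.5 CPM per kb), Ctse (46.4 ± 2.9) and Clps (40.8 ± 14.9) came next and overlapped one another. Bhlha15 was lowest of the 6 (7.28 ± 3.38 CPM per kb), below every control value of Clps. The place of Ctse rests on its gene model, since its exons combined measure 3.17 kb and its longest transcript 2.13 kb, which puts it at 69.2 CPM per kb.

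Among the 4 control libraries the genes differed in how much they varied. The SD as a percent of the mean was 6.33% for Ctse, 11.1% for Pgc, 21.8% for Cym and 46.4% for Bhlha15. Its median over genes with a control mean of at least 10 CPM was 7.70%. Cblif, Clps and Bhlha15 had the same order, control 1 highest, then 3, then 2, then 4, with ratios of highest to lowest of 2.60, 2.41 and 2.93. Cym had that order too, with a ratio of 1.73. Pgc (1.27) and Ctse (1.14) did not share it. Spreads of this size were rare in the controls. Of 9310 tested genes with a control mean of at least 10 CPM, 28 (0.301%) reached a ratio of 2, and 547 (5.88%) had this order, which was chosen after the values were seen.

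Only 5 of those genes met both conditions. They were Bhlha15, Cblif and Clps, together with Cckar, the receptor for cholecystokinin, and Pla2g4c, a cytosolic phospholipase. Cckar was at 36.9, 23.9, 25.0 and 17.7 CPM in controls 1 to 4 and at 0.15 ± 0.17 CPM in YAP5SA. Pla2g4c was at 27.6, 17.4, 24.2 and 11.7 CPM, and at 2.72 ± 0.54 CPM in YAP5SA. The gland mucous gene Gkn3 had the same order with a smaller ratio (417, 303, 332 and 225 CPM), whereas the gland mucin gene Muc6 went another way (56.4, 54.3, 44.5 and 93.5 CPM). Control 4 was also the library with the fewest counts, and the part of depth in this pattern was not tested.

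**Figure D2:**
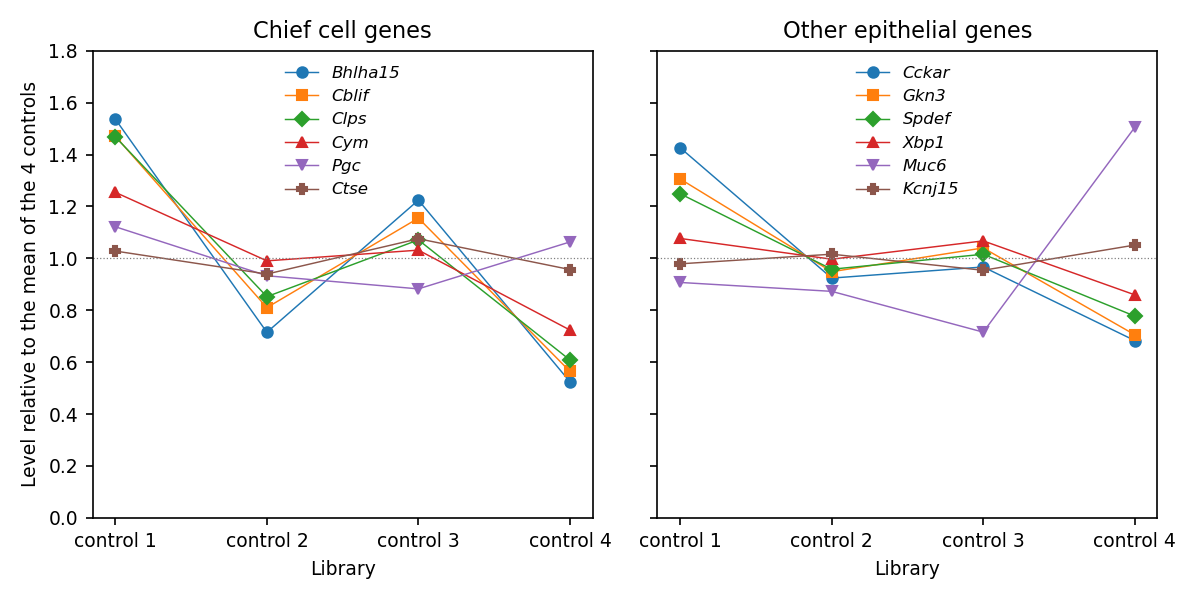
Level of each gene relative to its mean over the 4 control libraries (vertical axis), for 6 chief cell genes (left) and 6 other epithelial genes (right); thin lines only join the points of a gene, since libraries have no order. Bhlha15, Cblif and Clps are highest in control 1 and lowest in control 4, Pgc and Ctse stay near 1, and Muc6 is highest in control 4.

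The counts left of these genes in YAP5SA also varied by library, and whether they arose in these organoids was not tested. As a share of the control mean, Pgc was at 0.166%, 0.320%, 0.198% and 0.0503% in YAP5SA 1 to 4, and Cym at 0.287%, 0.370%, 0.278% and 0.0469%. Both were highest in YAP5SA 2 and lowest in YAP5SA 4, as was Cblif (0.466% and 0.0995%). Xist, an RNA of female cells, was left at 0.144%, 0.341%, 0.143% and 0.0508%, and the tight junction gene Cldn18 at 0.245% in YAP5SA 2 and 0.0218% in YAP5SA 4. Other genes had other orders, on few counts. Clic6, a parietal cell gene (19 counts in YAP5SA), was highest in YAP5SA 4 (0.532%) and Muc6 (22 counts) in YAP5SA 1 (0.833%). Kcnj15 (40 counts) was highest in YAP5SA 3 (0.340%), close to YAP5SA 2 (0.331%), and at 0 in YAP5SA 4. Gkn3 (63 counts) was lowest in YAP5SA 3 (0.141%). Whether these orders differ beyond counting error was not tested. Ctse lay higher, between 1.19% and 2.29% of its control mean.

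**Figure D3:**
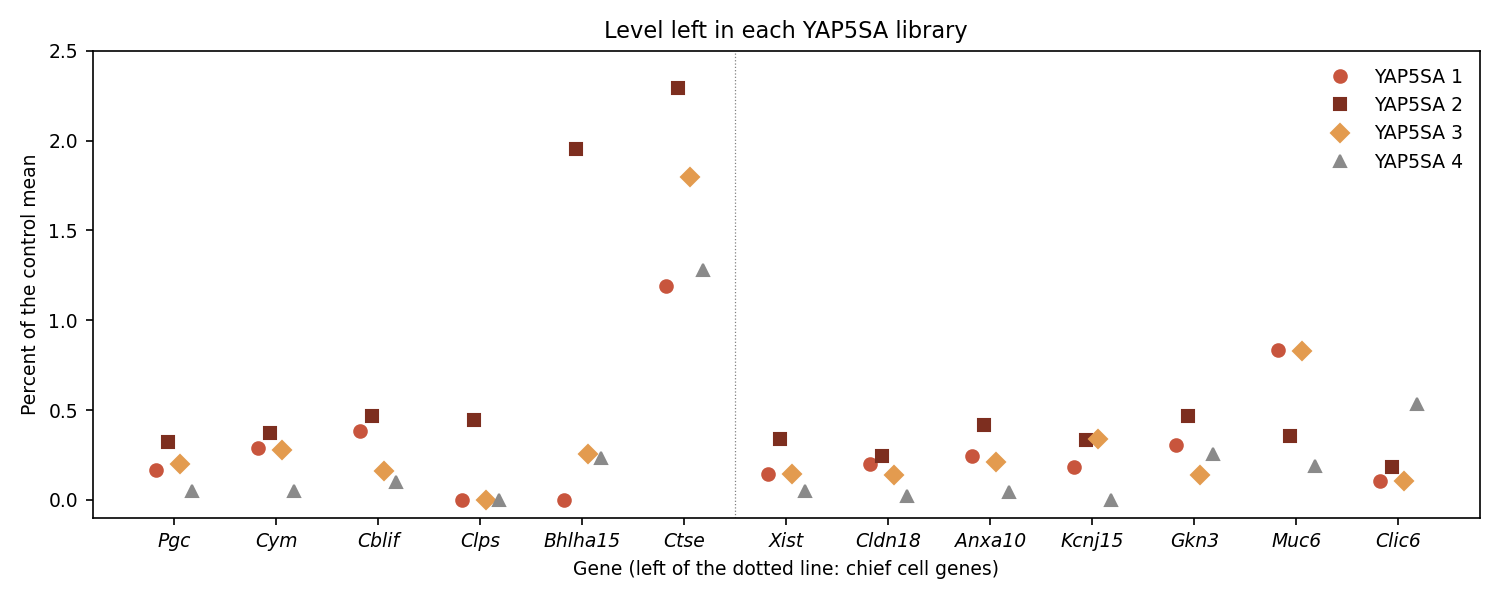
Level in each YAP5SA library as a percent of the control mean, for 6 chief cell genes (left of the dotted line) and for 7 other genes; each marker is 1 library. Pgc, Cym and Cblif lie under 0.5% and Ctse above 1% in all 4 libraries. The highest library is YAP5SA 2 for Xist, Cldn18, Anxa10 and Gkn3. It is another for Kcnj15, Muc6 and Clic6, which have 40, 22 and 19 counts in YAP5SA.

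The genes with the pattern most like these were sought by the root mean square difference in log2 CPM over the 8 libraries, each gene centred on its mean, among tested genes whose average log2 CPM was 3 or more. For Pgc they were Xist (difference 0.21), Anxa10 (0.25), Cybrd1 (0.37) and Kcnj15 (0.41). Anxa10, an annexin found in gastric epithelium, was at 396.5 ± 34.7 and 0.91 ± 0.61 CPM, and Cybrd1, an iron reductase, at 420.6 ± 53.4 and 1.10 ± 0.65 CPM. Cym had Anxa10 (0.22), Cybrd1 (0.32), Kcnj15 (0.35) and the scaffold gene Homer2 (0.46), and Cblif had Gkn3 (0.37), Akr1c19 (0.47), Homer2 (0.49) and Cdhr2 (0.53). Ctse had another set, Tff1 (0.22), Kalrn (0.26), Atp8a2 (0.28) and AI506816 (0.29). Tff1 is a trefoil factor gene of pit cells, with 71.5 ± 11.4 CPM (SD, n = 4) in controls and, in YAP5SA, 0.93 ± 0.30 CPM. Likeness here is mostly the size of the difference between groups.

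Lists of relatives and of pathway genes are given as counts; over all tested genes 49.1% were called, 25.5% lower and 23.6% higher. Besides Pgc, Cym and Ctse, 3 other aspartic protease genes were tested. Ctsd, the lysosomal cathepsin D, had 1162 ± 63 CPM in controls and fell to 838.4 ± 34.5 CPM, a log2 fold change of −0.47 ± 0.05 SE. The membrane proteases Bace1 (0.02 ± 0.05) and Bace2 (0.09 ± 0.08) did not pass the test. Of 4 tested lipase genes other than Clps, 2 fell and 2 rose. Lipa, the lysosomal acid lipase, fell from 28.3 ± 2.7 to 18.1 ± 0.4 CPM and Pnliprp2, a relative of pancreatic lipase, from 1.75 ± 0.96 to 0.065 ± 0.129 CPM, while Lipg rose from 11.8 ± 0.4 to 16.4 ± 2.9 CPM and Lipe from 19.6 ± 2.6 to 25.0 ± 1.7 CPM. The median log2 fold change of these 4 was −0.14, beside 0.004 over all tested genes.

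Of 11 tested genes of cobalamin handling other than Cblif, 5 fell and 6 did not pass the test, with a median log2 fold change of −0.14. The share called, both directions together, was close to the 49.1% over all tested genes, and all 5 calls were lower. Tcn2, the cobalamin carrier of plasma, fell from 56.2 ± 4.4 to 36.4 ± 3.5 CPM, its receptor gene Cd320 from 27.4 ± 2.6 to 17.1 ± 0.8 CPM and the efflux transporter gene Abcc1 from 210.7 ± 16.0 to 130.2 ± 4.4 CPM. The calls of Lmbrd1 (log2 fold change −0.14) and Mmut (−0.14) were lost under 7 and 11 of 16 other settings. Of 3 tested genes related to Chia1, Chid1 fell (log2 fold change −0.19), a call lost under 6 settings, among them those without control 3, YAP5SA 1 or YAP5SA 3. Mia2 and Mia3, larger relatives of Mia that export cargo from the endoplasmic reticulum, both fell, Mia2 from 167.7 ± 9.2 to 124.8 ± 3.7 CPM and Mia3 from 220.4 ± 10.2 to 145.5 ± 7.7 CPM.

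**Figure D4:**
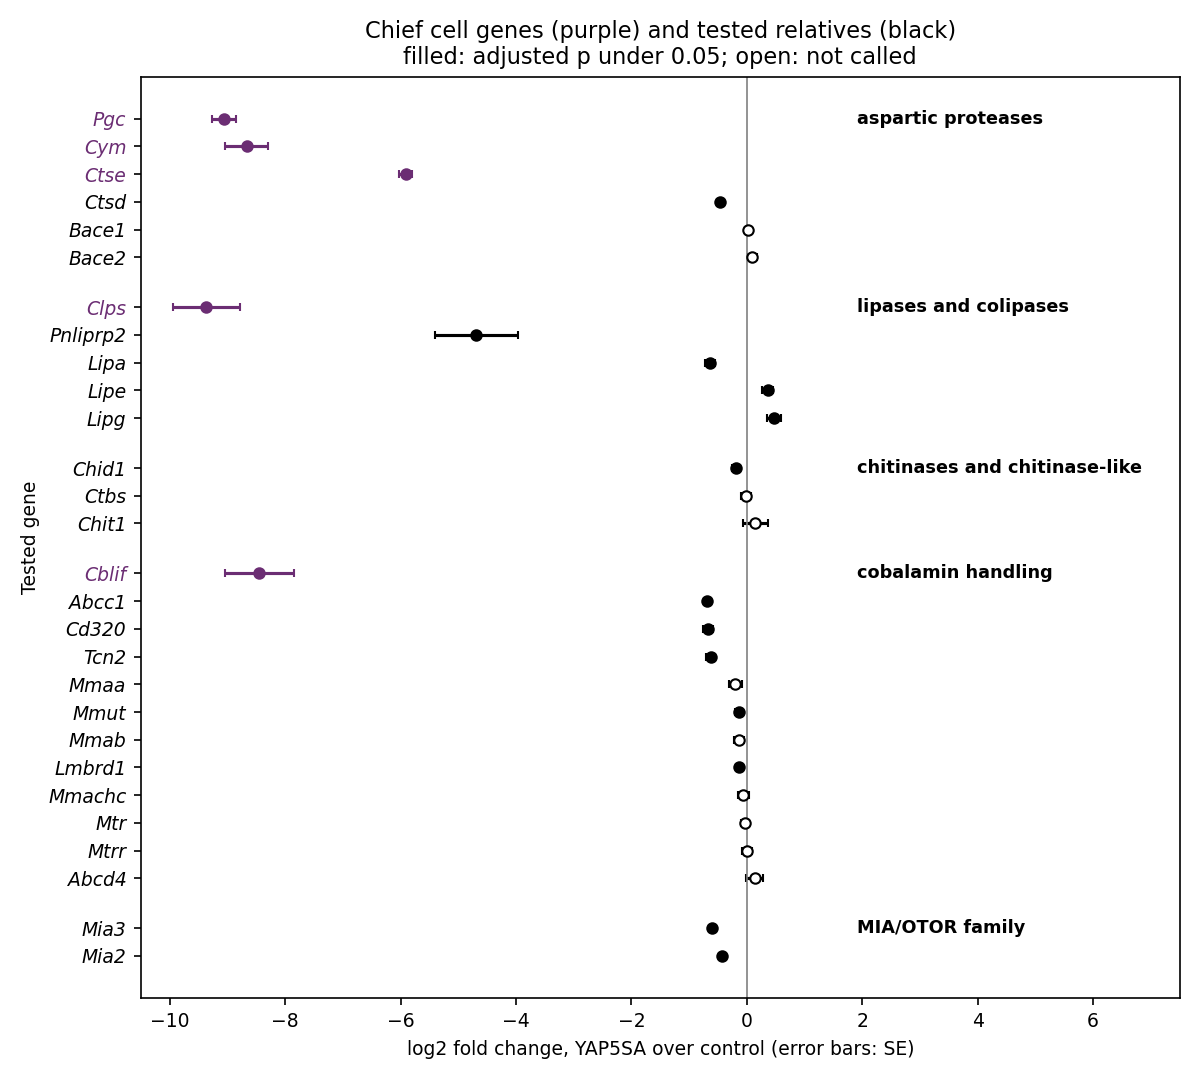
Log2 fold change (YAP5SA over control) with its SE for each tested gene of 5 families, with chief cell genes in purple and relatives in black; filled points passed an adjusted p under 0.05. Chief cell genes lie between −9.4 and −5.9, and the relatives between −0.7 and 0.5, apart from Pnliprp2 at −4.69.

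Of 13 tested genes in a list of other chief cell and gland base genes, 10 fell and 2 rose, leaving Xbp1 uncalled, with a median log2 fold change of −1.69. Gkn3 fell from 319.4 ± 79.2 to 0.93 ± 0.43 CPM, Cckar fell as given above, and Agr2, a protein disulphide isomerase of secretory cells, fell from 40.1 ± 6.5 to 1.13 ± 0.25 CPM. Tnfrsf19 and Lgr5, receptors found on gland base cells, fell 6.14-fold and 1.92-fold, and Rab3d, a small GTPase of zymogen granules, fell from 148.6 ± 13.5 to 88.5 ± 7.4 CPM. Fcgbp, a mucus-associated protein gene, and the water channel gene Aqp5 rose, Fcgbp from 1.49 ± 0.65 to 34.0 ± 4.4 CPM. Of these tested genes, Gkn3, Muc6, Tff2 and Aqp5 are also in the list of neck and gland mucous cells. Rab3d is also in that of secretory granules and Xbp1 in that of regulators, so the counts of these lists share genes.

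Genes of secretory granules and exocytosis divided, with 8 lower and 5 higher of 16 tested and a median log2 fold change of −0.11. Sytl2 and Sytl4, which tether granules to the membrane, fell 2.08-fold and 2.03-fold. Mlph, a granule transport adaptor, and Atp2c2, a calcium pump of secretory cells, rose 2.55-fold and 2.54-fold. Vamp8 (136.1 ± 14.5 and 145.3 ± 4.8 CPM) did not pass the test. The decreases of Rab27b (log2 fold change −0.16), Stxbp2 (−0.12) and Ccpg1 (−0.37) were small, and without YAP5SA 4 or at a threshold of 0.01 the count of lower genes was 5.

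Among 14 tested regulators of secretory cells other than Bhlha15, 5 fell and 5 rose, and 4 passed in neither direction (median log2 fold change 0.11). Spdef, a factor of mucous and goblet cells, fell from 16.8 ± 3.3 to 0.26 ± 0.19 CPM, Ern2, a stress sensor of mucous epithelia, from 9.13 ± 1.67 to 0.26 ± 0.11 CPM, and Creb3l4 from 8.28 ± 2.01 to 0.79 ± 0.31 CPM. Xbp1, which acts upstream of Bhlha15 in zymogenic cells, was at 145.2 ± 14.6 and 156.1 ± 9.5 CPM (adjusted p = 0.228, edgeR). Atf6 (113.9 ± 6.3 and 123.9 ± 7.7 CPM) did not pass either. Ern1, the general stress sensor that splices Xbp1, rose 1.55-fold and Id2, an inhibitor of helix-loop-helix factors, 1.56-fold, while Tcf12, a dimer partner of such factors, fell 1.27-fold.

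Of 16 tested genes in a list of gastric endoderm factors, which also holds the TEAD factor gene Tead4, 10 fell and 5 rose. Their median log2 fold change was −2.41. Gata5 fell from 93.8 ± 4.6 to 0.22 ± 0.16 CPM, while Gata4 and Gata6 fell 4.39-fold and 1.65-fold. Hnf4a fell from 130.7 ± 9.4 to 3.95 ± 0.58 CPM, Foxa3 from 40.3 ± 2.1 to 0.79 ± 0.24 CPM and Foxa2 from 16.9 ± 1.4 to 0.77 ± 0.24 CPM. Esrrg, a nuclear receptor gene of parietal cells, fell from 34.3 ± 3.0 to 0.10 ± 0.08 CPM. Foxa1, Foxq1 and Tead4 rose, by 1.14-fold, 1.91-fold and 2.91-fold.

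**Figure D5:**
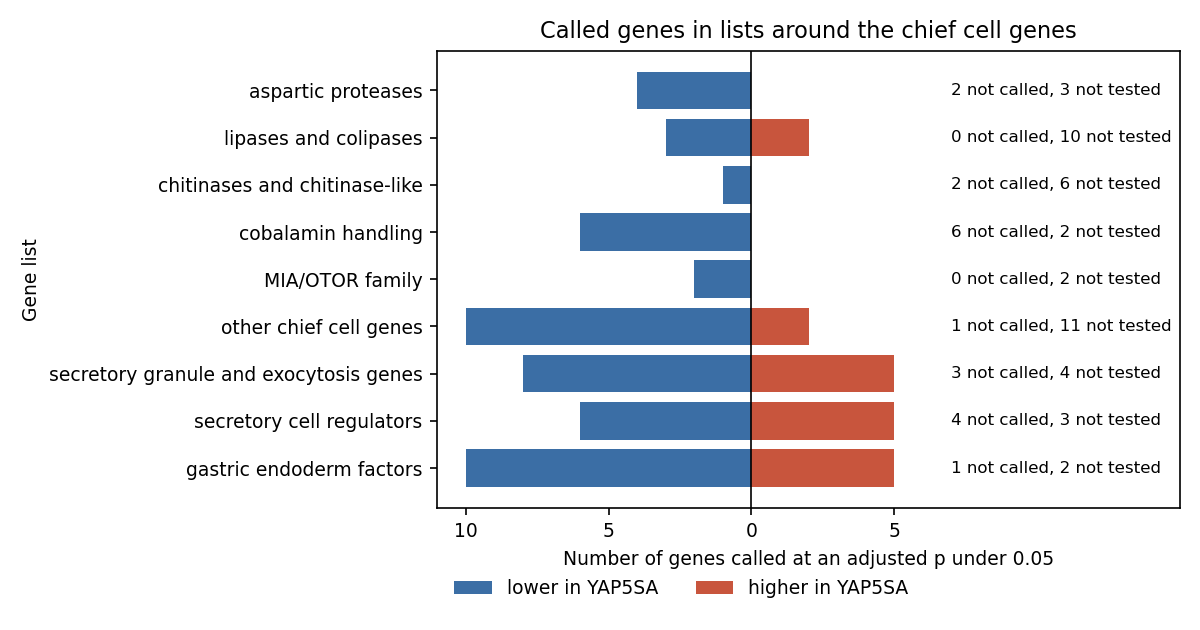
Number of genes called lower (left, blue) and higher (right, red) in YAP5SA at an adjusted p under 0.05, by list; chief cell genes are counted in the lists that hold them. Granule genes, regulators and lipases have calls on both sides, and the bars of aspartic proteases, cobalamin handling, chitinases and the MIA family lie on the left only.

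Summed levels of other cell types' markers were lower in YAP5SA for pit and parietal cells and higher for neck and gland mucous cells and squamous epithelium. Of 12 pit cell genes listed, the 11 found in the counts summed to 958.3 to 1115 CPM in controls and 711.6 to 750.6 CPM in YAP5SA. Of the 9 tested, 6 were lower and 2 higher. Most of that sum was Muc1 (341.0 and 476.5 CPM) and Psca (262.2 and 135.3 CPM), while Gkn1, Gkn2 and Tff1 fell 545-fold, 445-fold and 75.7-fold. The 14 parietal cell genes summed to 1170 to 1294 CPM and 589.8 to 653.4 CPM, with 6 of 8 tested lower. In controls the largest were Car2 (625.4 and 451.7 CPM) and Kcnj15 (283.7 and 0.61 CPM), while Kcnq1 (153.2 and 159.1 CPM) was not called. The proton pump genes were low in both groups, Atp4a at 8.21 and 5.40 CPM and Atp4b at 0.05 and 0 CPM. The 10 neck and gland mucous genes summed to 1091 to 1258 CPM and 1457 to 1570 CPM, with 6 of 9 lower and 3 higher. The higher sum came from Aqp5 (320.5 and 667.5 CPM), Wfdc2 (323.2 and 645.9 CPM) and Muc4 (12.6 and 188.5 CPM). Muc6 fell from 62.2 to 0.34 CPM and Gkn3 fell as given above, and the median log2 fold change of the 9 was −3.13. The squamous forestomach genes summed to 128.7 to 184.5 CPM in controls and 918.6 to 1044 CPM in YAP5SA, with 1 of 8 tested lower and 3 higher. Most of that sum was the keratin gene Krt4 (116.4 ± 23.5 and 951.0 ± 61.5 CPM), while Ivl, the cornified envelope gene involucrin, fell from 31.4 ± 2.2 to 3.04 ± 0.28 CPM. The basal squamous markers Krt5, Krt14 and Trp63 averaged at most 0.54 CPM in either group. The part of these cell types in the lower levels of the chief cell genes was not tested.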

How the data were processed

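Whole-number read counts per gene were deposited by the authors for 8 libraries (4 control, 4 YAP5SA), sequenced as paired ends of 150 bp per the labels' protocols. The submitters' processing notes name cutadapt, HISAT2 2.0.1, HTSeq 0.6.1 and the build mm9. Which annotation and strand setting were used for counting is not given in the sources used here. Of 56691 rows, 2639 without a gene name (0.19% to 0.221% of counts) were left out, and 959 rows that share 77 symbols were summed. The 14058 genes that passed filterByExpr of edgeR (minimum count 10, minimum total 15) were normalized by TMM. The fit used edgeR 4.0.16 under R 4.3.3 (glmQLFit with robust estimation, then glmQLFTest) with genotype as its single term, and calls were made at a Benjamini-Hochberg adjusted p under 0.05 over all tested genes. An SE is the absolute log2 fold change over the square root of the F statistic. Floors are 3 counts and intervals are exact at 95%; both cover counting error only. Exon lengths were taken by symbol from GENCODE M21, not an mm9 annotation, so levels per kb are approximate.

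The members and lists were chosen with earlier results of these data known. The rule for named genes took the 10 members, up to 5 called genes of smallest adjusted p in every list, further list genes at 100 CPM or more, and the 4 nearest patterns of Pgc, Cym, Cblif and Ctse. Many genes it took from lists of other cell types are given only as sums or are not named. Bace2, Ccpg1, Mmut, Muc6, Pla2g4c, Ptf1a, Eif2s3y and Yap1 lie outside the rule and were chosen after their values were seen. Atp4a, Atp4b, Gata4, Gata6, Id1, Id3, Tcf3, Tead4 and Tff2 also lie outside it and were chosen in the same way. No test was made over a list. The fit was tested on simulated data. The 16 alternatives include DESeq2 1.42.0, other normalizations, filters and thresholds, a replicate block and leaving out each library.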

Additional observations from a re-analysis of the deposited data

Results flagged for a closer look

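In each group of 4 libraries, the highest or lowest value of each of 79 named genes was set against the other 3 by Dixon's criterion. Chance meets it in about 1 in 20 groups of normally distributed values, and 12 of the 150 groups looked at met it. A group with counts in 1 library alone always meets it, so these shares cannot be compared. That was the case for Clps, Cdhr2, Krt14 and Pnliprp2 in YAP5SA and for Chia1 and Trp63 in controls.

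Among the chief cell genes, Bhlha15 stood apart in YAP5SA 2 (0.497 CPM, the others at 0 to 0.064 CPM), and Clps in the same library (0.11 CPM, the others at 0). Chia1 stood apart in control 4 (0.15 CPM, the others at 0), which is 2 counts. Among the genes nearest to Cblif and Pgc, Cdhr2 was low in control 2 (23.8 CPM, the others at 28.9 to 29.9 CPM) and was counted in YAP5SA 2 alone (0.055 CPM). Cybrd1 was low in control 2 (340.9 CPM, the others at 440.8 to 454.6 CPM).

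Among the other listed genes, Gata5 was high in YAP5SA 1 (0.45 CPM, the others at 0.12 to 0.17 CPM) and Pnliprp2 was counted in YAP5SA 1 alone (0.26 CPM). Mlph was low in control 2 (34.9 CPM, the others at 41.7 CPM), and Tcf12 was high in YAP5SA 4 (94.8 CPM, the others at 86.0 to 87.2 CPM). The squamous marker Krt14 was counted in YAP5SA 2 alone of its group (0.11 CPM), and Trp63 in control 2 alone (0.108 CPM).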

How the results depend on the processing

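Under all 16 alternatives Pgc, Cym, Cblif, Ctse, Clps and Bhlha15 were called lower in YAP5SA, with Lipf as a further gene where no filter was used. The log2 fold change was −9.52 to −8.74 for Pgc, −8.97 to −8.31 for Cym, −8.85 to −8.16 for Cblif, −6.14 to −5.80 for Ctse, −11.69 to −9.02 for Clps and −9.02 to −6.84 for Bhlha15. With the longest transcript in place of all exons, Ctse stood at 69.2 CPM per kb in controls. Genes called over the whole table numbered 6899, and 5377 to 7611 under the alternatives, with 6371 to 7317 when 1 library was left out. Same-numbered libraries did not deviate together (correlations of −0.05, −0.08, 0.09 and 0.04), and controls 3 and 4 but not 1 and 2 correlated best with their own number; the fit with a replicate block called 6586 genes. Of the listed genes, 14 changed call under at least 1 alternative; the cause was not tested. Counts were few for Lipf, Chia1, Mia and Pga5, each with at most 13 in a group, and the part of depth was not tested.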
